A study of Homo sapiens with 2 samples.

Results

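GAS5, SNHG1 and SNHG5 are 3 of the 312 gene symbols that the study paired with probes of its array, and 8 of the 77162 probes were examined for them, 3 for GAS5 (chromosome 1), 4 for SNHG1 (chromosome 11) and 1 for SNHG5 (chromosome 6). LNCaP, an androgen-responsive cell line established from human prostate cancer, was kept for 72 h without phenol red in charcoal-stripped serum, which removes steroid hormones. RNA was then taken before dihydrotestosterone (DHT, an androgen) was added (0 h) and 2 h after 10 nM DHT, with 1 array per condition. The labels of the 0 h sample name the DHT dose as well, and no sample with vehicle alone was analysed here. No difference had a replicate check or a test, because the spots of a probe share their RNA and measure spot noise only. The 8 probes were chosen by values of these arrays and by sequence. Probes oebiotech_16752, oebiotech_18226, oebiotech_18307 and oebiotech_16789 come from the study's list of lncRNA probes that changed on these samples, and the first 3 of them were selected on a signal not above background at 0 h. The other 4 were picked because they hold at least 15 bases of a PCR primer of GAS5 or SNHG1, or of the stretch that it binds. The contrast between bright and silent probes of a gene is therefore a description.

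These genes host small nucleolar RNAs (snoRNAs). Their transcripts carry snoRNAs inside introns, the snoRNAs are released as the introns are removed, and the joined exons remain as a spliced RNA with little protein-coding potential. The snoRNAs guide chemical modification of ribosomal RNA. The spliced host RNAs often begin with a C and a run of pyrimidines, a start that ties translation to cell growth, and are broken down when ribosomes translate them. GAS5 was named for its accumulation in growth-arrested cells. A probe in an intron and a probe across joined exons of such a gene measure different RNA species.

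The probes are single strands of 60 bases, read 5′ to 3′ in the sense of the transcript. For GAS5, oebiotech_16872 holds 15 of the 19 bases of the forward PCR primer and oebiotech_17156 holds all 19. The silent probe is shown because it opens with 13 bases of the stretch bound by the reverse primer, in capitals.
oebiotech_16752: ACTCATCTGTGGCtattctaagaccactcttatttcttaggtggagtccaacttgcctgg

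For SNHG1 the capitals of the first pair mark the 20 bases of the stretch bound by the reverse primer, which both hold whole. The capitals of oebiotech_18307 mark 28 bases shared with another listed SNHG1 probe, oebiotech_18280, and oebiotech_18226 shares no such stretch.
oebiotech_05112: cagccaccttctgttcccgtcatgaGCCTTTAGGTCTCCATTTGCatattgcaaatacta
A_24_P785293: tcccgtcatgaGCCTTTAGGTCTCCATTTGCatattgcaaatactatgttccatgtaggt
oebiotech_18226: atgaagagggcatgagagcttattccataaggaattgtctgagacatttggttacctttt
oebiotech_18307: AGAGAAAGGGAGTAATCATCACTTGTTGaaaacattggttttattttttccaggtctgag

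For SNHG5 no probe held 15 bases of a PCR primer. The capitals mark the 48 bases that its listed probe shares with a probe that the list does not name.
oebiotech_16789: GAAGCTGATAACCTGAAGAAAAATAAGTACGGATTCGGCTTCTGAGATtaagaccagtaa
A_21_P0000373: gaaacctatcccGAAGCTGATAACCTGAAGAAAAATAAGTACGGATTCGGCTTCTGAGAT

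Values below are log2 signals after quantile normalization of both arrays, and an error is the SD over the spots of a probe. Detection of a probe required a share of 0.5 or more of its spots well above background. For probes detected at 2 h only, a 0 h value below the lowest level found for any detected probe at 0 h (5.65) was raised to it. The difference is then a lower bound, which holds for this limit only. Where the 0 h value lay above the limit, the difference is the measured one, with too few 0 h spots well above background for detection. Levels of different probes are not compared, because each probe has its own brightness. On the whole array, 21.9% of non-control spots were well above background at 0 h and 37.4% at 2 h, and the median unscaled log2 difference of spots that passed on both was 0.90, while that of 5 spike-in probes of added control RNA was -0.40. The part of these shifts in the differences below was not tested. The labelled cell line could not be checked, since no probe held 15 bases of a PCR primer for the transcripts of KLK3 or TMPRSS2. A single probe held 15 bases, on the other strand, of a primer for an enhancer of KLK3, which does not name the probe's gene.

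Counting lower bounds, 3 of the 8 probes were at least 2-fold higher at 2 h, 1 of GAS5 and 2 of SNHG1, and none was at least 2-fold lower. Of all 32423 probes detected on 1 or both arrays, 15% were higher by 2-fold or more and 13.1% lower, and among the 12989 detected at 2 h only 19.6% were higher. The 3 probes are those selected for silence at 0 h, so nothing is read from their count. The scaling between the arrays set how many more probes passed 2-fold. Under spike-in scaling all 8 were at least 2-fold higher and with no scaling 7 were, while 1 was with normexp, a model-based background correction in place of the scanner software's.

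The bright GAS5 probes had small differences. Probe oebiotech_16872 had unscaled processed signals of 1649, 1146 and 1128 at 0 h and of 3332, 2880 and 2830 at 2 h. After normalization its level went from 10.83 ± 0.27 (SD, 3 spots) to 11.22 ± 0.14, a log2 difference of 0.39, and the normalized spots of the arrays overlapped. Probe oebiotech_17156 had unscaled signals of 1796, 1624 and 1529 at 0 h and of 4310, 4515 and 3790 at 2 h. Its level went from 11.13 ± 0.10 to 11.75 ± 0.14, a log2 difference of 0.61, with no overlap between the normalized spots. The pair shares 22 bases, so these are not independent measures of GAS5. Neither was past 2-fold, as 12% of the 19304 probes detected on both arrays were in the higher direction. Their direction depended on the scaling, since aligning the arrays at the 75th percentile over every non-control spot gave -0.42 and -0.30, and aligning them at the median of spots that both detected gave -0.016 for oebiotech_16872.

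The silent GAS5 probe, selected for that silence, had a larger difference. Probe oebiotech_16752 had unscaled signals of 11.8, 11.6 and 10.1 at 0 h, all 3 of them surrogates that the scanner software put in place of a signal not above background, and of 559, 546 and 606 at 2 h. The last spot carried an outlier flag and was left out. The level after normalization was 3.87 ± 0.53 at 0 h and 8.61 ± 0.02 (2 spots) at 2 h. The lower bound of the log2 difference was 2.95, which is at least 7.75-fold higher with this limit only. The value was 1.62 with normexp, 1.99 when all spots had to be above background and 2.00 with the median over spots. The bound of 2.95 less the mean difference of the bright GAS5 probes was 2.45. This gap between probes of GAS5 was 2.83 without quantile normalization, whichever constant shift between the arrays was used, since such a shift cancels in a gap, and 1.14 with normexp.

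The SNHG1 probes with a primer had differences of 0.71 and 0.81 after quantile normalization. Probe oebiotech_05112 had unscaled signals of 154, 184 and 148 at 0 h and of 677, 613 and 643 at 2 h, the second of the latter flagged. Its level went from 8.17 ± 0.14 to 8.88 ± 0.05 (2 spots), a log2 difference of 0.71, with no overlap between the normalized spots. Probe A_24_P785293, which shares 46 bases with it, had unscaled signals of 40.9, 49.0 and 56.1 at 0 h, of which 1 spot was well above background, and of 238, 260 and 271 at 2 h. Its 0 h level of 6.62 lay above the limit, so its log2 difference of 0.81 (1.75-fold higher) is the measured one. The difference was 1.31 and 1.17 when the arrays were aligned at the 75th percentile or at the median of the spots that both arrays detected. It was 0.76 with alignment at the 75th percentile over every non-control spot and 0.66 with normexp. After quantile normalization the difference of A_24_P785293 lay 0.096 (log2) above that of oebiotech_05112, and neither reached 2-fold.

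Probe oebiotech_18226 of SNHG1 had unscaled signals of 10.1, 11.5 and 9.47 at 0 h and of 304, 294 and 276 at 2 h. Its level was 3.45 ± 0.38 at 0 h and 7.63 ± 0.08 at 2 h, at least 3.93-fold higher (log2 bound 1.98). Probe oebiotech_18307 had unscaled signals of 11.5, 9.84 and 10.0 at 0 h and of 196, 217 and 221 at 2 h. Its level was 3.50 ± 0.43 at 0 h and 7.14 ± 0.10 at 2 h, 2.81-fold higher with the same limit (log2 bound 1.49). Every 2 h spot of both probes was above every 0 h spot. With normexp the bounds were 0.97 and 0.62, below 2-fold, and they were 1.01 and 0.52 when all spots had to be above background. The mean bound of this pair less the difference of oebiotech_05112 was 1.02, but 0.19 with normexp, 0.052 when all spots had to be above background and 0.032 with the median over spots, so the size of the SNHG1 gap rests on how the 0 h side is set.

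At 0 h, 8 of the 9 spots of these 3 silent probes held surrogate signals, and the brightness of the 9 spots less the subtracted background lay between -5.91 and 11.9. The background itself was 139 to 156 at 0 h and 166 to 179 at 2 h at these spots. At 2 h their processed signals were 196 to 606. Before normalization every 2 h spot of each of the 8 probes was above every 0 h spot, as was true of 76.7% of the 14931 probes of 3 spots detected on at least 1 array. After normalization this held for 6 of the 8 probes, against 38.2% of those probes, with oebiotech_16872 and oebiotech_16789 overlapping or turned round. The 6 include the 3 probes selected for silence at 0 h, so nothing is read from this count.

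**Figure D1:**
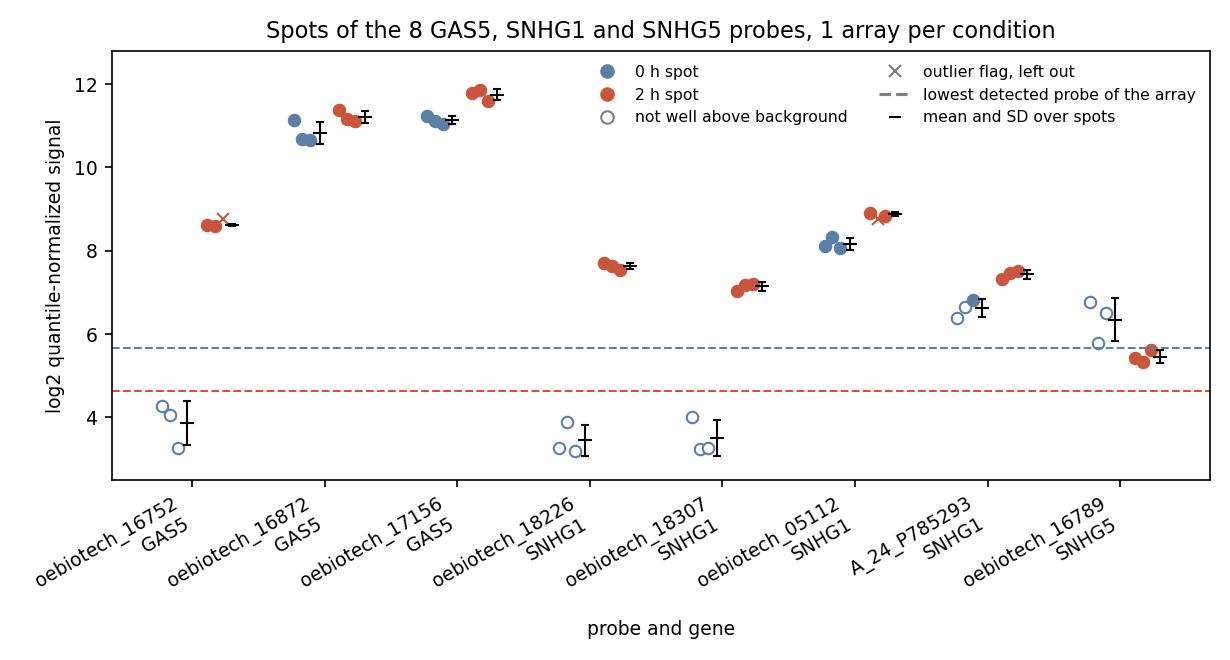
Log2 quantile-normalized signal of each spot of the 8 probes at 0 h (blue) and 2 h (red), with open circles for spots not well above background, crosses for flagged spots, black marks for mean and SD over spots, and dashed lines for the lowest detected probe of each array. The silent probes lie at 3.45 to 3.87 at 0 h, below the 0 h line at 5.65, and the bright probes differ by 0.39 to 0.71; heights of different probes are not comparable.

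For the only examined SNHG5 probe no fold change is given, because it was not well above background at 0 h and its normalized level was lower at 2 h. Probe oebiotech_16789 had unscaled signals of 53.5, 27.0 and 44.1 at 0 h, all above background but none well above it, and of 64.0, 60.2 and 74.2 at 2 h. Its unscaled spots were thus all higher at 2 h, whereas its normalized level was 6.35 ± 0.51 at 0 h and 5.46 ± 0.15 at 2 h, a log2 difference of -0.89. Spike-in scaling turned it to 1.10 and unscaled signals to 0.72, and it was -1.04 in the values that the authors deposited. The probe that shares 48 bases with it, A_21_P0000373, had a log2 difference of -0.22 and was also detected at 2 h only. The other listed SNHG5 probe, oebiotech_16899, had a normalized level of 3.24 at 0 h and 5.30 at 2 h, below the 0 h limit of detection, so its fold change was not determined.

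The 5 alternative scalings are constant shifts between the arrays and move all 8 probes by the same amount. Among the scalings, only quantile normalization can therefore change a probe relative to the others. Normexp, the detection rules and the median over spots do so too. The median measured log2 difference of detected probes was 0.16 after quantile normalization, -0.12 with alignment at the 75th percentile over every non-control spot and 1.90 under spike-in scaling. These medians use 0 h levels that were not raised, unlike the bounds set against them. After quantile normalization the median was -0.096 counting lower bounds and -0.29 for probes detected on both arrays. Relative to the median of measured differences, oebiotech_16752 lay 2.80 higher after quantile normalization and 2.59 higher under a constant shift. The values were 1.82 and 1.67 for oebiotech_18226, 1.33 and 1.20 for oebiotech_18307, 0.56 and 0.51 for oebiotech_05112 and -1.05 and -0.80 for oebiotech_16789. The GAS5 primer probes changed their side of this median, from 0.23 to -0.30 for oebiotech_16872 and from 0.46 to -0.18 for oebiotech_17156. With the arrays aligned at the median of spots that both detected, their differences were -0.016 and 0.11, so their side rests on the reference chosen.

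**Figure D2:**
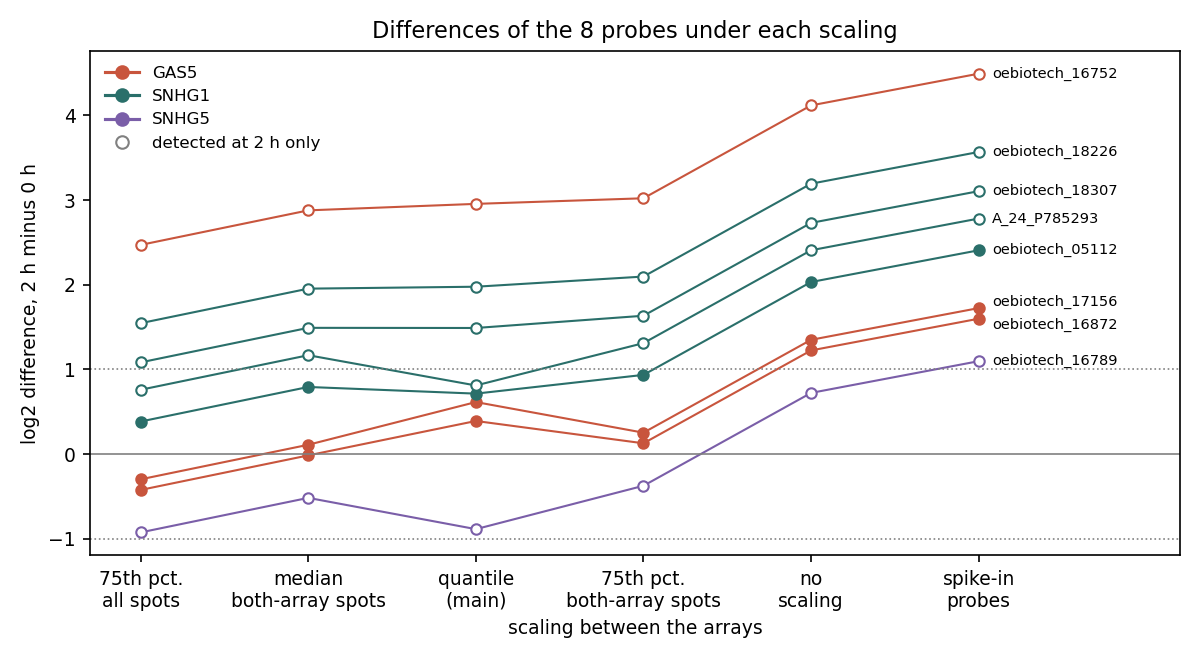
Log2 difference (2 h minus 0 h) of each of the 8 probes under 6 scalings between the arrays. Open circles are probes detected at 2 h only, with lower bounds where the 0 h side was at the limit. Lines join the values of a probe, and 5 of the scalings shift all probes alike. The solid grey line marks no difference and dotted lines 2-fold. Probe oebiotech_16752 is highest under each scaling, from 2.47 to 4.49, and oebiotech_16789 lowest, from -0.93 to 1.10.

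The array holds more probes of these genes than the 8. The study's list names 8 probes of GAS5, 10 of SNHG1 and 2 of SNHG5, and with the primer-holding probes and those sharing at least 18 bases with any of them 35 probes were found, 16 of GAS5, 16 of SNHG1 and 3 of SNHG5. None lay on the opposite strand. Detection was on both arrays for 17 of the 35 probes and at 2 h only for 18, 17 were at least 2-fold higher counting lower bounds and none at least 2-fold lower, against 15% and 13.1% of all detected probes. With normexp 7 GAS5 and 4 SNHG1 probes were at least 2-fold higher, and under spike-in scaling all 35 were. Their median difference was 0.93 on the log2 scale, against -0.096 for all detected probes counting lower bounds. The listed probes were named because they changed on these arrays, so the higher share among them is fixed by the list.

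All 8 listed GAS5 probes were at least 2-fold higher, from 1.55 to 2.95 on the log2 scale, and 3 of them were detected on both arrays. Probe oebiotech_16700 had the largest difference measured on both arrays, from 8.29 ± 0.15 to 11.17 ± 0.05, which is 7.33-fold. The 8 unlisted GAS5 probes were all detected on both arrays and had differences from -0.14 to 0.62. Of the 10 listed SNHG1 probes, 8 were at least 2-fold higher and the others, oebiotech_18280 and oebiotech_18211, had bounds of 0.93 and 0.83. The 6 unlisted SNHG1 probes had differences from -0.11 to 1.04. In all, 9 of the 16 SNHG1 probes were at least 2-fold higher, against 15% of all detected probes, but 4 were with normexp and 6 with the median over spots. Among listed SNHG1 probes detected on both arrays, oebiotech_18126 was higher by 1.76 and oebiotech_18146 by 1.51, the latter with an SD of 0.79 over its spots at 0 h.

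**Figure D3:**
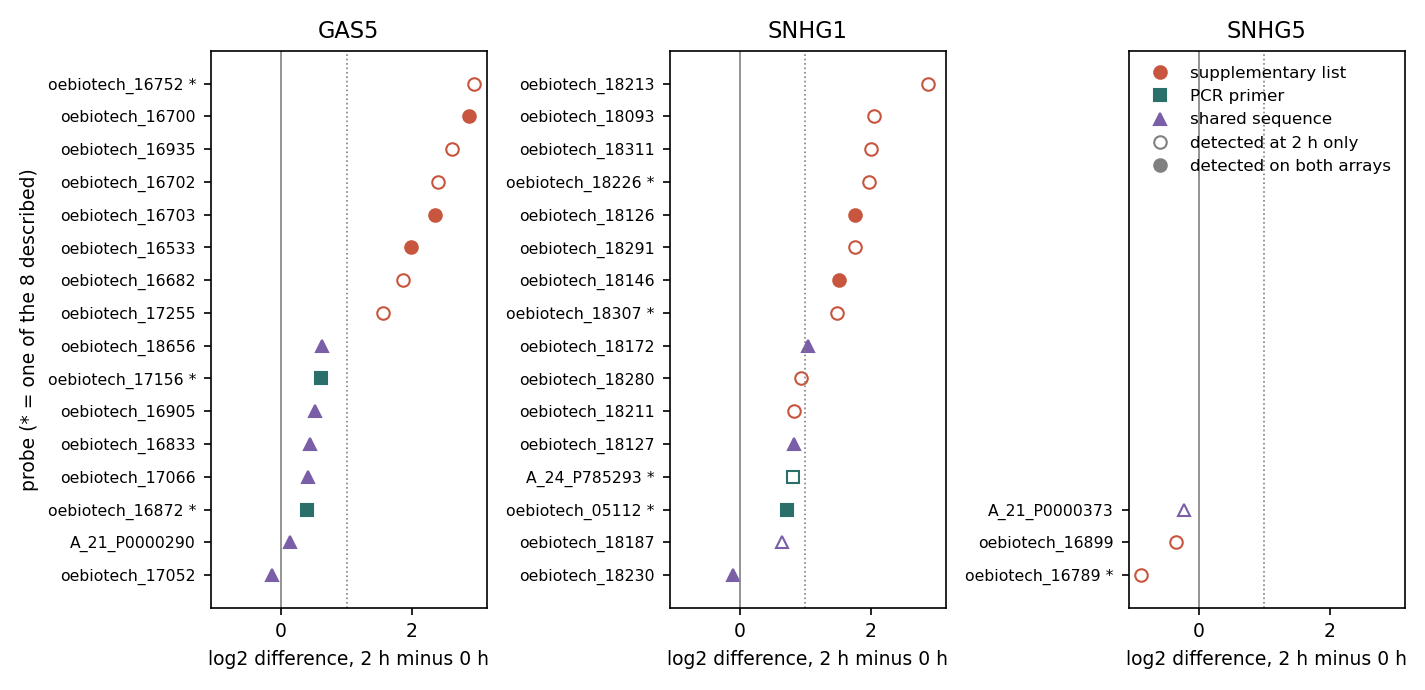
Log2 difference (2 h minus 0 h) of the 35 probes of GAS5, SNHG1 and SNHG5, ordered within a gene; circles mark probes of the study's list, squares those with a PCR primer, triangles those found by shared sequence, and open symbols those detected at 2 h only, whose values are lower bounds where the 0 h side was at the limit. The listed GAS5 probes lie at 1.55 to 2.95 and the unlisted ones at -0.14 to 0.62. The 3 SNHG5 probes are plotted below 0, oebiotech_16899 only because its 0 h side was raised above its 2 h level. All 3 SNHG5 probes were higher under spike-in scaling.

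Probes that share part of their sequence allow the GAS5 and SNHG1 differences to be set beside each other within a stretch of RNA. Each of the next pairs holds the same block with other letters around it. One probe of the pair has a run rich in pyrimidines and AG at the start of the block, or letters close to GTAAGT or GTGAGT at its end, as introns have next to an exon. Its partner runs on into other sequence, as joined exons would. The probes were not mapped to a genome here, and this grouping was made after the values were seen.

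For GAS5, oebiotech_16533 went from 8.65 ± 0.02 (2 spots) to 10.64 ± 0.12, a log2 difference of 1.99, while oebiotech_16905, with 27 of the same bases, went from 11.55 ± 0.10 to 12.06 ± 0.11, a difference of 0.52. Probe oebiotech_16703 went from 6.97 ± 0.22 to 9.33 ± 0.05, a difference of 2.35, while oebiotech_16833, with 33 of the same bases, had a difference of 0.44. All 4 were detected on both arrays, so no bound enters. The mean of both probes with intron-like letters exceeded the mean of their 4 partners (the other partners being oebiotech_17066 and oebiotech_18656) by 1.67, with a combined spot SD of 0.16 (the root of the summed squares of the weighted spot SDs). This gap was 2.23 without quantile normalization and 1.42 with normexp. In SNHG1 the probes are shown because the capitals mark the 34 bases that oebiotech_18172, a probe found by sequence and not listed, shares with oebiotech_18230, and the 19 bases that the listed oebiotech_18311 shares with oebiotech_18230, where they end inside its capitals.
oebiotech_18172: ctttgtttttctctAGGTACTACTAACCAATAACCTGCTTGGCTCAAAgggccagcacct
oebiotech_18230: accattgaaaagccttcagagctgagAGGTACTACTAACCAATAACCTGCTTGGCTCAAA
oebiotech_18311: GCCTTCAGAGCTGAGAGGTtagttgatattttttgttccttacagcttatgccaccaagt

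Probe oebiotech_18230 had a log2 difference of -0.11, from 8.38 ± 0.21 to 8.26 ± 0.02. Probe oebiotech_18172 had a difference of 1.04, from 7.48 ± 0.28 to 8.51 ± 0.01 (2 spots). The listed oebiotech_18311 was not well above background at 0 h. Its 0 h level of 6.43 lay above the limit, so its 4.002-fold higher signal at 2 h is the measured difference and no bound. The difference between oebiotech_18172 and oebiotech_18230 was 1.15, with a combined spot SD of 0.35, and 0.75 with normexp. On the whole array the same letters were searched next to blocks of at least 18 bases shared by a pair of probes: AG after a stretch of up to 15 bases with at least 60% pyrimidines, or GT followed by A or G and then AGT with at most 1 mismatch, absent from the partner. With both probes detected on both arrays, 82 probes qualified, 3 of them of GAS5 or SNHG1. The 79 others had a median gap of 0.018, and 6 of them (7.59%) had a gap of at least 1, while the 3 had gaps of 1.15, 1.49 and 1.91. Some pairs entered the 79 from both sides with opposite signs, such as 0.996 and -0.996, which draws their median toward 0. The rule is crude, was set after the values were seen, and the GAS5 probes had been listed as changed, so this is a description.

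**Figure D4:**
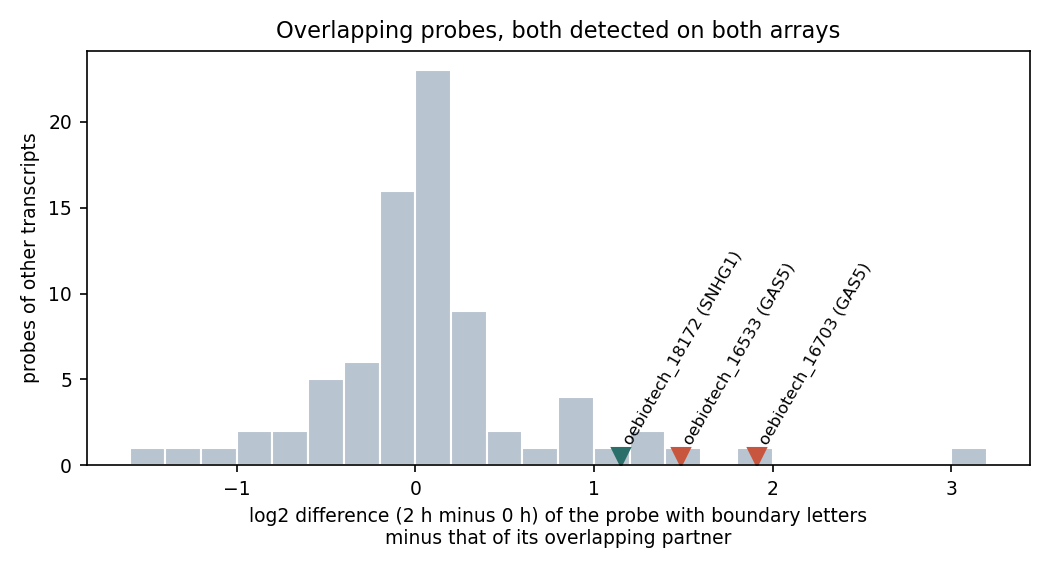
Histogram of the gap, in log2 units, between a probe with intron-like letters and its overlapping partners, for 79 probes of other transcripts (bars), with triangles for oebiotech_18172 of SNHG1 and oebiotech_16533 and oebiotech_16703 of GAS5. The triangles lie at 1.15, 1.49 and 1.91, and the bars have a median of 0.018.

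Such letters were also counted in the 8 probes. In oebiotech_16752 an AG follows 15 bases of which 13 are pyrimidines, as many as in 3.07% of all probes, and in oebiotech_18307 an AG follows 12 pyrimidines of 15, as in 9.40%. In oebiotech_18226 the highest such count was 8, reached by 76.7% of probes. The SNHG1 primer probes, which were not silent, had 11 in oebiotech_05112, as in 21.8% of probes, and 10 in A_24_P785293, as in 39.9%. No partner across joined exons was found by shared sequence for any of the 3 silent probes. The base composition of the 35 probes was alike, with 35.0% to 45.0% G and C, against a median of 41.7% over all probes.

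A further pair of GAS5 probes disagreed although nearly all their sequence is shared. They are shown because 55 of their 60 bases, in capitals, are the same, and they were picked after their values were seen.
oebiotech_16682: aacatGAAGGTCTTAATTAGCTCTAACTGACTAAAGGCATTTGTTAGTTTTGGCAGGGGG
oebiotech_17052: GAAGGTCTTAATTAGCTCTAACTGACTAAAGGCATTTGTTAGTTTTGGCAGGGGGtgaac

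The listed probe, oebiotech_16682, went from 6.19 ± 0.11, not well above background, to 8.05 ± 0.07, a log2 difference of 1.87, and oebiotech_17052 from 8.99 ± 0.02 to 8.85 ± 0.15, a difference of -0.14. Their gap of 2.01 was 2.38 without quantile normalization, 1.02 with normexp, 1.58 with detection by all spots and 1.51 with the median over spots. Over 1637 pairs of probes on the array that share at least 50 bases, this pair among them, the median size of the gap was 0.15, from which nothing is read about a pair chosen for its gap. Another probe of the same stretch, A_21_P0000290, had a log2 difference of 0.13. It shares 32 bases with oebiotech_16682 and holds the letters TGATGA and, at least 20 bases on, CTGA, which are those of the C and D boxes of a class of snoRNAs and stand in this order in 0.198% of all probes.

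The promoters of the 3 genes were read from RefSeq (GRCh38.p14), from 250 bases before to 50 after the annotated start, at chr1:173868996-173869295 for GAS5, chr11:62855836-62856135 for SNHG1 and chr6:85678684-85678983 for SNHG5, all on the minus strand. None held the E-box CACGTG, which reads the same on both strands, as 7.26% of 35116 promoters did. A C followed by at least 4 pyrimidines at the annotated start was found for SNHG5 and not for GAS5 or SNHG1, and for 4.07% of all promoters. This says only that these letters are or are not in the window.

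Probes of other snoRNA host genes passed 2-fold in both directions. Of 7 probes of SNHG6, SNHG11 and SNHG12 found by the list or a primer, 2 were at least 2-fold higher and 2 at least 2-fold lower, against 15% and 13.1% of all detected probes, and no probe of SNHG3 was found. Those past 2-fold all came from the study's list of probes that changed on these arrays, so nothing is read from their count. Of the 7, 1 probe of SNHG12 was detected on neither array and had no value. Nothing about these genes as a group is read from so few probes. The higher ones were oebiotech_17273 and oebiotech_17322 of SNHG12, with measured log2 differences of 1.75 and 1.41 and no 0 h spot well above background. They were below 2-fold with normexp (0.90 and 0.85) and when all spots had to be above background (0.91 and 0.94). The lower ones were A_19_P00316034 and A_23_P325119 of SNHG11, both detected on both arrays, with differences of -1.15 and -1.05, but 0.33 and 0.73 under spike-in scaling and -0.045 and 0.36 with no scaling. Both SNHG6 probes were near the limit, with values of 0.17 and -0.14.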

How the data were processed

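Total RNA of LNCaP cells at 0 h and 2 h of DHT was labelled with Cy3 and hybridized, 1 array per condition. Per the labels, the deposited intensity values came from Agilent Feature Extraction 10.7.1.1, background-corrected, with surrogates for spots not above background and no scaling between arrays. The authors also deposited log2 values, quantile normalized per probe, which served as an alternative.

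Quantile normalization was applied to the processed signals of 175556 non-control spots in Python 3.11.15 (limma 3.58.1 under R 4.3.3 gave the same values within rounding), followed by log2. Outlier-flagged spots (2628 at 0 h, 2528 at 2 h) were dropped, none was saturated, and the others were averaged per probe. A probe was analysed when a share of 0.5 of its spots was well above background on at least 1 array, and 2-fold was the threshold. No statistical test was made. The number of arrays limits the precision. Alternatives were 5 other scalings, normexp with an offset of 50, the authors' values, other detection and outlier rules, the median over spots, each spot left out and a 3-fold threshold. The normalization and the 2-fold calls were checked on simulated data. That check used the detection flags of the 0 h array on both sides, so the rule for lower bounds was not checked.

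The members and lists were chosen with earlier results of these data known. Genes were named from the study's probe list, PCR primers of at least 15 bases and shared sequence. Probes named were the 8 examined, further probes of the 3 genes, and at most 2 for each other snoRNA host gene. RefSeq coordinates were used only for promoters. Some probe sequences, a marker gene and some of the promoter motifs searched are not reported here.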

Additional observations from a re-analysis of the deposited data

How the results depend on the processing

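No paired analysis was possible because each condition had 1 array, and a block for slide or scan could not be fitted. The 3 probes at least 2-fold higher became 8 under spike-in scaling, 7 with no scaling and 1 with normexp. The 0 probes at least 2-fold lower became 1 (oebiotech_16789) with the authors' values, with detection by all spots and with the median over spots, and leaving out each spot gave 0 to 1, and 3 to 3 for higher probes. The GAS5 gap between probes of 2.45 was 1.14 with normexp, 1.49 with detection by all spots, 1.43 with the median over spots and 4.24 with no detection filter or detection by any spot (where surrogate signals stand for the 0 h side, so that this is no measured size), and 2.38 to 2.52 leaving out each spot. The SNHG1 gap of 1.02 was 0.19, 0.052, 0.032 and 3.20 under the same alternatives, 0.62 with the authors' values and 0.92 to 1.10 leaving out each spot. The GAS5 gap of probes with intron-like letters, 1.67, was 2.23 under the 5 constant shifts, which cancel in a gap, 1.42 with normexp, and 1.61 to 1.76 leaving out each spot. That of SNHG1, 1.15, was 0.75 with normexp and 1.12 to 1.18 leaving out each spot. The cause of these changes was not tested. The contrasts on intron-like letters and on the pair sharing 55 bases were added after seeing the data. Signals near background limit every value of a probe detected at 2 h only.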
